A study of Bos taurus with 8 samples.

Results

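Bovine chromosome 20 is covered on this array by 681 of its 10249 non-control probes, all of them between 33 and 38.5 Mb (Btau_3.1). The window from 33 to 38.5 Mb was chosen with earlier results of these data known, so the tests below are not independent of those results. Its probes were chosen by position alone, as non-control probes on chromosome 20 that start inside that window. Split at gaps over 20000 bp between starts, they formed 2 tiled loci. Locus 1 held 564 probes from 33893946 to 34209754, and locus 2 held 117 probes from 37742986 to 37819934. No chromosome 20 probe of the array lay outside the window. No probe is paired with a gene in the files and the gene table at hand is on another assembly, so positions are given without a gene, exon or intron, which were not analysed here.

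The study compared arcuate nucleus DNA of 4 high-gain and 4 low-gain heifers (Bos taurus, all female). Per the labels, feeding began at an age of 4.5 months, and rations were set for a daily gain of 1 kg in the high-gain group (heifers 1 to 4) and 0.5 kg in the low-gain group (heifers 5 to 8). Tissue was collected at 8.5 months of age, and every heifer gave 1 array. On each array, DNA pulled down by the binding domain of a methyl-CpG protein (enriched, 3 µg labelled) was hybridised together with total DNA of the same animal (input, 3 µg labelled). The breed is not given in the sources used here. The assay read DNA only, so the labelled tissue could not be checked against marker genes, and the mix of neurons and glia in the tissue is not recorded.

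The arcuate nucleus is the hypothalamic centre in which neurons that drive and restrain feeding sense hormones of energy balance and act on the neurons that control reproduction. Cytosine methylation at CpG sites is a DNA mark that is copied at cell division and is often low at active promoters and high across the rest of a mammalian genome. A methyl-CpG binding domain protein holds double-stranded fragments by their methylated CpG sites, so captured DNA is rich in stretches that hold many CpG sites, most of them methylated. The log2 ratio of enriched to input signal thus depends on how many CpG sites a fragment has as well as on how many are methylated.

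Values below are log2 ratios of enriched to input signal, minus the median over all non-control probes of the same array. A value of 0 is the median probe of that array and not an absence of methylation. Low-gain heifers 6, 7 and 8 resembled each other more than any other animals did. Inside the window, the pairs among heifers 6, 7 and 8 had r of 0.563 to 0.629 over the 681 probes, and outside it of 0.575 to 0.671. Inside the window heifer 5 correlated at 0.113 to 0.159 with those 3, and at 0.146 to 0.216 with the animals of the high-gain group. Pairs within the high-gain group were no closer, at 0.041 to 0.236, and high-gain heifer 3 correlated at 0.281 to 0.298 with heifers 6, 7 and 8. These are correlations across probes, which share arrays and input brightness and are not independent replicates. Results that rest on heifer 5 are given with and without that animal.

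Both loci lay slightly below the array median. At locus 1 the high-gain heifers 1 to 4 had mean ratios of -0.12, 0.16, -0.23 and -0.60, and the low-gain heifers 5 to 8 had -0.14, -0.45, -0.31 and -0.40. At locus 2 the high-gain heifers had -0.16, 0.16, -0.27 and -0.32, and the low-gain heifers -0.10, -0.45, -0.27 and -0.30. High-gain heifer 2 was the 1 animal above 0 at both loci. The groups overlapped at both loci, and high-gain heifer 4 was the lowest of all at locus 1.

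**Figure D1:**
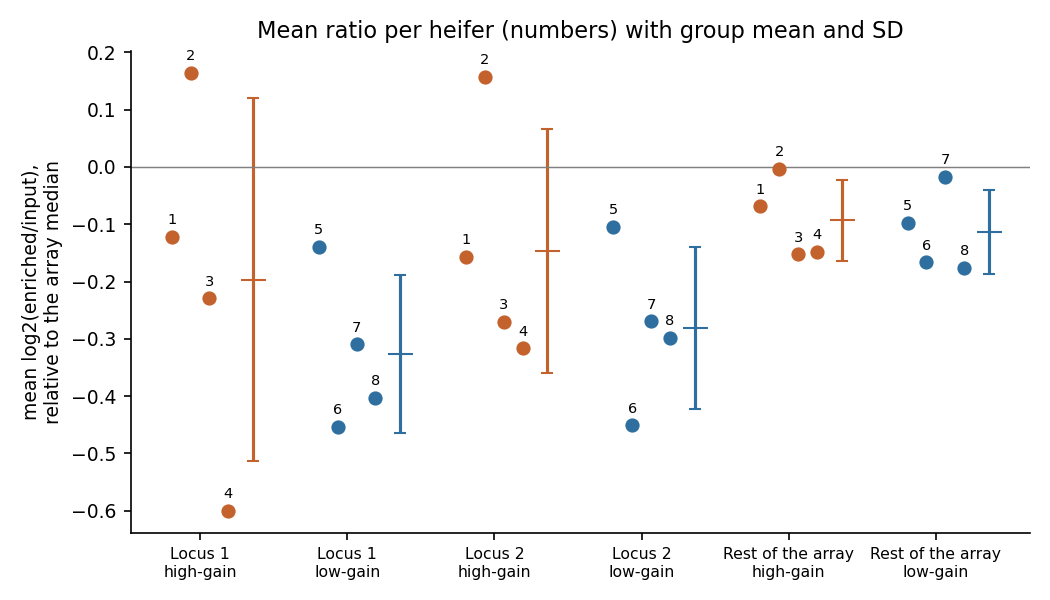
Mean log2 ratio of enriched to input DNA (vertical axis, relative to the array median) for each heifer at locus 1, locus 2 and over the rest of the array. Points are heifers, numbered 1 to 8; crosses with bars are group means and SD (n = 4). At both loci 7 of 8 heifers lie below 0, high-gain heifer 2 lies above 0, and the groups overlap.

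The mean of both group means was -0.26 (standard error 0.078, n = 8) at locus 1 and -0.21 (standard error 0.067, n = 8) at locus 2. Both differed from the array median over the 97 loci of the array (limma, Benjamini-Hochberg adjusted p = 0.0249 and 0.0262), as did 34% of all loci on the low side. Counted from the lowest, the loci ranked 22 and 31 of 97. Probe means over the rest of the array were also below 0, at -0.07, -0.003, -0.15 and -0.15 in high-gain heifers 1 to 4. In low-gain heifers 5 to 8 they were -0.10, -0.17, -0.02 and -0.18. Window minus rest was -0.06, 0.17, -0.08 and -0.40 in heifers 1 to 4. Heifers 5 to 8 were at -0.04, -0.29, -0.29 and -0.21 (mean of all 8 -0.15, SD 0.18), which was not tested. Window medians were -0.02, 0.18, -0.03, -0.77, 0.02, -0.50, -0.43 and -0.39 in heifers 1 to 8. The calls at both loci were lost without high-gain heifer 3 (limma, adjusted p = 0.0667 and 0.0747) and on leaving out heifer 6 (0.0655 and 0.0931), 7 (0.0546 and 0.0586) or 8 (0.0570 and 0.0572) of the low-gain group. The call at locus 2 was also lost without high-gain heifer 1 (limma, adjusted p = 0.0611).

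The probes of the window were longer than those elsewhere, a property that the choice of probes by position within the window did not use. Probe length is read here as end minus start, which ran from 45 to 60 bases. In the window 55.7% of probes (379) spanned 60 bases, against 34.1% over the rest of the array. Locus 1 had 57.4% and locus 2 had 47.0% of such probes. Probes spanning 45 bases made up 11.6% of the window and 37.4% of the rest.

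Ratios differed between the length classes. Over the rest of the array, probes spanning 60 bases averaged -0.22 ± 0.35 (SD, n = 4) in the high-gain and -0.48 ± 0.22 (SD, n = 4) in the low-gain group, and shorter probes averaged -0.03 ± 0.11 and 0.08 ± 0.10. In the window, probes spanning 60 bases averaged -0.28 ± 0.42 and -0.44 ± 0.22, and shorter probes -0.07 ± 0.16 and -0.17 ± 0.05. Among probes spanning 60 bases, window minus rest was -0.05, 0.02, -0.07 and -0.15 in high-gain heifers 1 to 4 and 0.04, 0.01, 0.06 and 0.07 in low-gain heifers 5 to 8. Window probes of that length thus lay within 0.15 of equally long probes elsewhere on every array. Among shorter probes, the same difference was -0.02, 0.23, -0.06 and -0.34 in the high-gain group and -0.07, -0.31, -0.41 and -0.21 in the low-gain group, below 0 in 7 of 8. This class is itself mixed, since probes spanning 45 to 49 bases made up 20.1% of the window and 49.4% of the rest. Averaged over all arrays, the window was at -0.07 and the rest at 0.09 for 45 to 49 bases, at -0.16 and -0.13 for 50 to 54, and at -0.17 and -0.26 for 55 to 59. The window lay below the rest on 6, 2 and 3 of the 8 arrays in these classes, so the lower values of shorter window probes were not seen at every length.

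With each array centred within the 2 length classes, an alternative chosen after seeing the data, the means of loci 1 and 2 were -0.06 and -0.08. Neither then passed the test against the median (limma, adjusted p = 0.335 and 0.316). The number of window regions with a mean below 0, described next, went from 48 to 34 of 60.

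**Figure D2:**
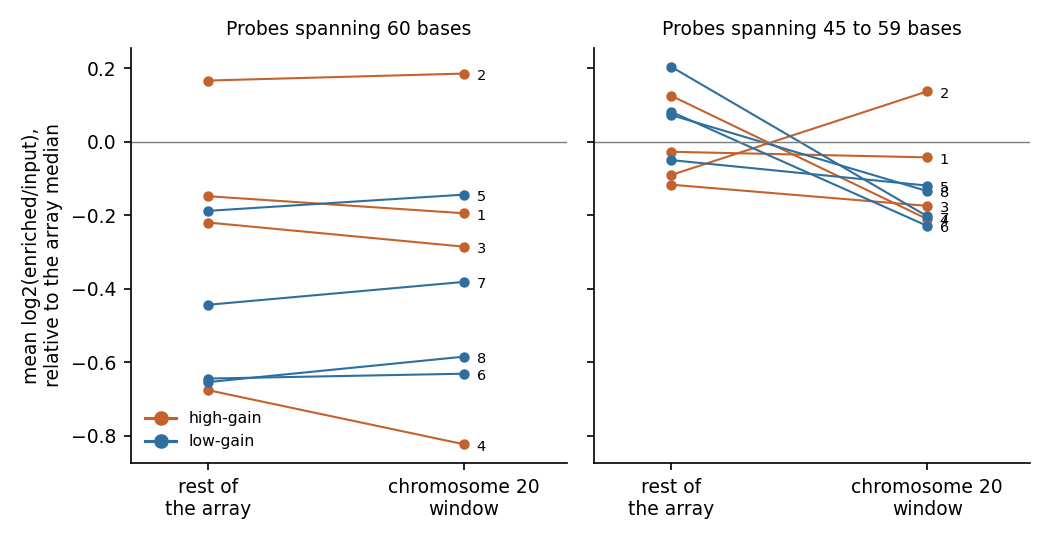
Mean log2 ratio (vertical axis, relative to the array median) of probes spanning 60 bases (left) and 45 to 59 bases (right), over the rest of the array and in the chromosome 20 window. Each line is a heifer, numbered at its right end. In the left panel the lines run nearly level, and in the right panel 7 of 8 end lower in the window.

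Regions were stretches of at least 3 probes with neighbouring starts at most 1000 bp apart. The window held 60 of the 960 regions, 46 in locus 1 and 14 in locus 2, with 657 of its 681 probes. Of these 60 regions, 48 had a mean over both groups below 0, where 56% of all regions did. Their median was -0.21 against -0.04 over all regions, and they ran from -1.37 to 0.31. The medians of the 2 loci were -0.23 and -0.18.

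Compared with the array median, 7 of the 60 regions lay below it and 0 above it (limma, adjusted p under 0.05), where 9.58% of all regions were called below and 3.33% above. All 7 were in locus 1. In either direction, 7 of 60 (11.7%) were called, against 12.9% of all regions. Both shares moved with the heifers. Without high-gain heifer 2 the count was 16 (26.7%, against 15.7% of all regions), without heifer 3 it was 3 (5%, against 5.21%) and without heifer 4 it was 4 (6.67%, against 7.29%). Without low-gain heifer 5 it was 18 (30%, against 27%), without heifer 6 it was 1 (1.67%, against 4.27%) and without heifer 8 it was 2 (3.33%, against 4.17%). With the row of the slide as a block, 14 regions were called (23.3%, against 17.6%), and within rows 1 and 2 of the slide 3 and 13 were (5% and 21.7%, against 2.5% and 11.9%).

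**Figure D3:**
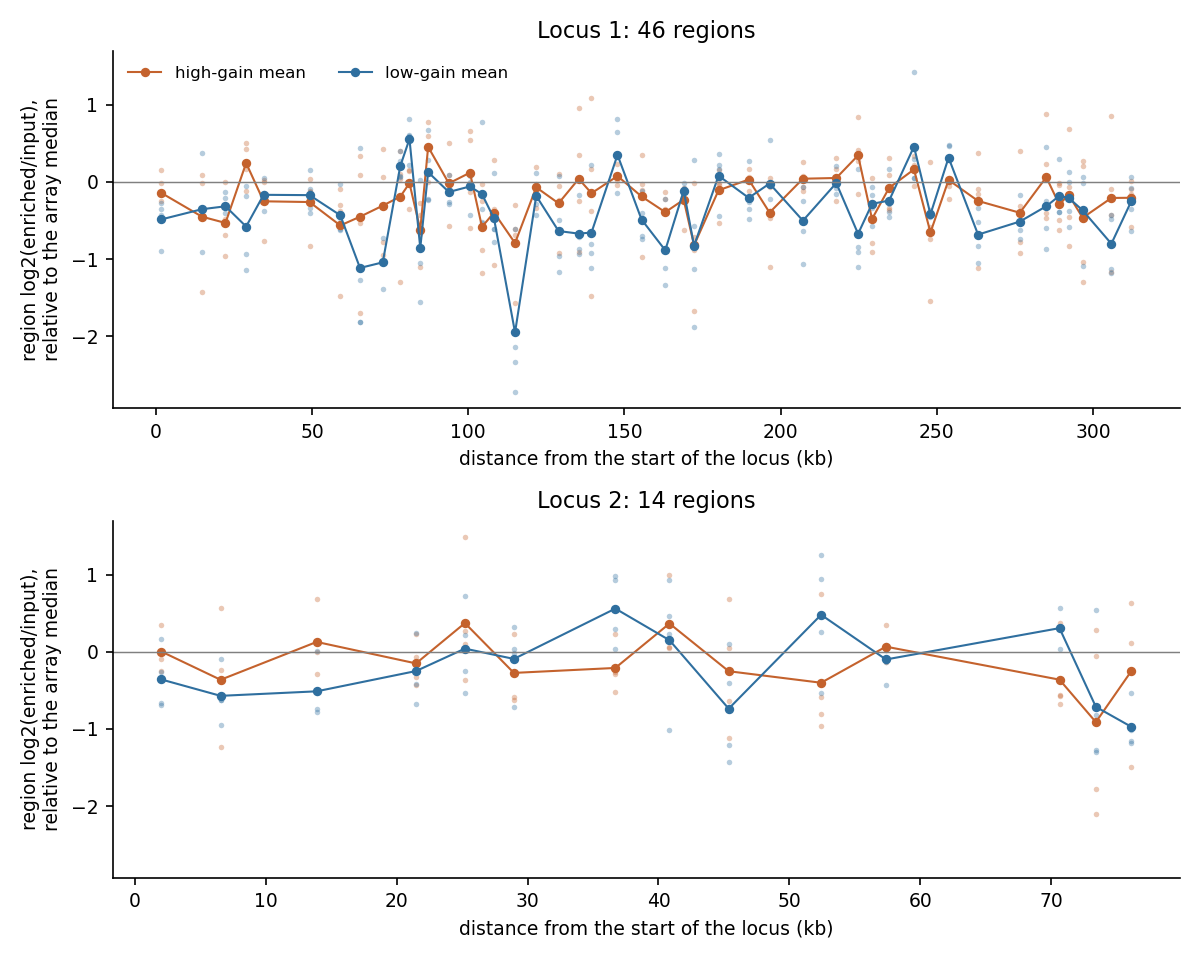
Log2 ratio of enriched to input DNA per region (vertical axis, relative to the array median) along locus 1 (46 regions) and locus 2 (14 regions), by distance from the start of the locus in kb. Faint points are single heifers and joined points are group means (n = 4). The deepest low-gain mean, in locus 1, is the region starting at 34007696.

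The lowest region of the window spanned 34007696 to 34010156 and held 6 probes. Its ratio was -0.69, -0.30, -1.57 and -0.61 in high-gain heifers 1 to 4, and -0.61, -2.72, -2.14 and -2.34 in low-gain heifers 5 to 8. All 8 arrays lay below 0. Low-gain heifer 5 lay inside the high-gain range, while low-gain heifers 6, 7 and 8 lay below every high-gain heifer. The mean over both groups was -1.37 (standard error 0.21; limma, adjusted p = 0.0031 over 960 regions). It was the only window region at or under -1, as were 1.04% of all regions. It stayed below the array median at adjusted p under 0.05 in all 8 leave-one-out fits (-1.60 to -1.24) and under the 12 other alternatives run for it (-1.67 to -0.93).

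The 6 probes of that region were not alike. The probe at 34008437 to 34008493 was at 0.62, -0.08, 0.90 and -3.09 in high-gain heifers 1 to 4, and at -3.48, -4.02, -3.52 and -4.18 in low-gain heifers 5 to 8. There the low-gain heifers, heifer 5 included, lay below all high-gain heifers, with high-gain heifer 4 close to them. The probe at 34007696 to 34007756, at the start of the region, was at -1.54, -0.09, -1.44 and -0.97 in the high-gain group and at -1.56, 0.19, -0.59 and 1.58 in the low-gain group. Here 2 low-gain heifers lay above 0 and no high-gain heifer did.

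The probe at 34009119 to 34009174 was at -0.53, -0.39, -3.12 and -0.95 in the high-gain group and at -0.43, -3.14, -2.80 and -3.27 in the low-gain group. High-gain heifer 3 and low-gain heifers 6, 7 and 8 formed the low set at this probe, and again at the one at 34009488 to 34009548. At the latter, heifer 3 was at -3.23 and heifers 6, 7 and 8 at -2.86, -2.04 and -2.84, with high-gain heifer 4 at 1.42. At the last probe, 34010096 to 34010156, heifer 5 was the highest of the 8 at 1.58, and high-gain heifers 1, 2, 3 and 4 were at -1.72, -0.37, -1.65 and -1.88. In the group fit, the 6 probes had differences from -0.91 to 3.39 (high-gain minus low-gain), and none passed (limma, smallest adjusted p = 0.262).

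Input at this region was bright, 1.65 log2 units above the median probe, and the enriched signal was 0.56 above it. The ratio was therefore low while the enriched signal itself was above that of the median probe. The groups differed by 1.05 in the enriched channel and by -0.10 in the input channel. Of its readings in the enriched channel, 87.5% in the high-gain group and 62.5% in the low-gain group stood well above background.

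**Figure D4:**
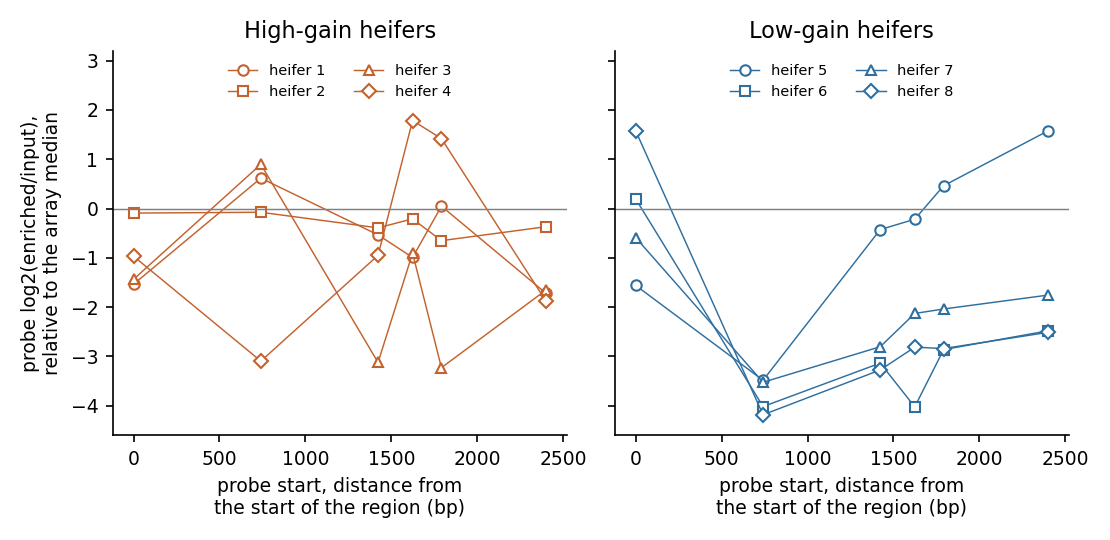
Log2 ratio (vertical axis, relative to the array median) of the 6 probes of the lowest region against the distance of their starts from the start of the region in bp. Each line is a heifer, high-gain on the left and low-gain on the right. Low-gain heifers 6, 7 and 8 run together below -1.5 from the second probe on, while heifer 5 climbs from -3.48 to 1.58.

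Next lowest was the 4-probe region at 34065782 to 34066679, whose mean was -0.82 (standard error 0.22; limma, adjusted p = 0.0325). Its 4 high-gain heifers were at -0.71, -0.02, -1.68 and -0.88 and its low-gain heifers at -1.88, -1.14, 0.28 and -0.57, so neither group was uniform. The mean was -1.98 over probes well above background in input on all arrays (limma, adjusted p = 0.0101). Over those above it in both channels on at least 6 arrays it was -0.32 (limma, adjusted p = 0.391). Regions were not defined anew after these filters, so both means could rest on fewer than 3 probes. The mean was -0.89 with scaling and -0.57 with the authors' values, neither of which passed (limma, adjusted p = 0.0569 and 0.0639). The low value at 37815502 to 37817299 in locus 2, -0.81, did not pass (limma, adjusted p = 0.0663). High-gain heifers 3 and 4 were at -1.78 and -2.10 there, and high-gain heifer 2 and low-gain heifer 5 were at 0.28 and 0.54. At 33957867 to 33960722 the mean was -0.78, also short of the threshold (limma, adjusted p = 0.0645). High-gain heifer 4 (-1.70) and low-gain heifers 6, 7 and 8 (-1.81, -1.82 and -1.27) were low there, and low-gain heifer 5 was the highest at 0.44.

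The remaining 2 of the 6 lowest regions passed. The region at 33978326 to 33978853 had a mean of -0.74 (standard error 0.16; limma, adjusted p = 0.0159) and was below 0 in 7 of 8 heifers, heifer 5 being at 0.02. That at 33963435 to 33969724, with 13 probes, had a mean of -0.68 (standard error 0.16; limma, adjusted p = 0.0198) and was below 0 in 6 of 8. The calls at 34065782, 33963435 and 33978326 did not hold in every leave-one-out fit, though these 3 means stayed below 0 in all 8. The call at 34065782 was lost without heifer 1, 3, 4, 6 or 8 (limma, adjusted p = 0.0546, 0.0888, 0.0689, 0.0940 and 0.0619). The call at 33963435 was lost without heifer 3, 4, 6 or 8 (limma, adjusted p = 0.0606, 0.0502, 0.0631 and 0.0540). That at 33978326 was lost without heifer 6 or 8 (limma, adjusted p = 0.0507 and 0.0517). The regions at 33957867 and 37815502 passed without heifer 2 (limma, adjusted p = 0.0433 and 0.0293) or without heifer 5 (0.0087 and 0.0196). Under the 12 other alternatives, the calls at 34065782, 33963435 and 33978326 were lost in 6, 4 and 2, and those 2 regions passed in 3 and 4. That at 33963435 was lost with scaling (limma, adjusted p = 0.0689), and those at 33963435 and 33978326 within slide row 1 (0.369 and 0.153).

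The 6 highest regions of the window reached means of only 0.21 to 0.31, and none passed (limma, adjusted p = 0.121 to 0.460). The highest was 34136193 to 34137061, at 0.23, 0.33, -0.05 and 0.14 in the high-gain group and 0.30, 1.43, 0.05 and 0.05 in the low-gain group. Its height rested on low-gain heifer 6, since the mean was 0.15 without that animal, and it was -0.11 with normexp background correction. With loess it was 0.48 and passed (limma, adjusted p = 0.0437). Next was the 9-probe region at 33979915 to 33982298 with 0.29. It lies about 1 kb beyond the low region at 33978326, so neighbouring regions could differ by about 1 log2 unit. The others were 33974601 to 33975665 (0.27), 37782965 to 37784683 (0.26), 34037788 to 34045658 (0.21, with 21 probes) and 37767257 to 37769137 (0.21). Their heifers were not uniform, low-gain heifer 5 being at -1.02 in the second of these and high-gain heifer 3 at 1.49 in the last.

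No locus, region or probe of the window passed the test between high-gain and low-gain heifers after adjustment. The difference, high-gain minus low-gain, was 0.13 (standard error 0.16; limma, adjusted p = 0.628) at locus 1 and 0.13 (standard error 0.13; limma, adjusted p = 0.609) at locus 2, where 0% of all 97 loci passed. Without adjustment, p was under 0.05 at 0 of these 2 loci and at 14.4% of all loci. Over the window as a whole the mean ratio was -0.19 ± 0.30 (SD) in the high-gain and -0.32 ± 0.14 (SD) in the low-gain group (n = 4 per group; exact permutation p = 0.457, two-sided). For 4 against 4 the smallest p is 0.0286. The window difference was 0.31 within row 1 of the slide and -0.05 within row 2, with 2 heifers per group in each, so its direction turned between rows. It was larger over probes well above background. It was 0.49 where input was so on all arrays (exact permutation p = 0.114). Where both channels were so on at least 6 arrays it was 0.50 (exact permutation p = 0.0857). That second filter could be passed with all 4 high-gain but only 2 low-gain arrays. Neither filter was followed by new centring. Of 5 equal classes of probes by mean input, the brightest outside the window was at -0.06 in the high-gain and -0.70 in the low-gain group. The dimmest was at -0.02 and 0.61. The part of such offsets in the larger differences was not tested.

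Among 60 regions the smallest adjusted p was 0.226 (limma), where 0.104% of all 960 regions passed. With no adjustment, p was under 0.05 at 8 regions, 13.3% of those in the window against 14.5% of all regions. Of the 8, 5 were higher in high-gain heifers (8.33% of the window against 6.25% of all regions) and 3 lower (5% against 8.23%). The shares were near the background. The split moved with the processing, to 13 of 14 higher with normexp, 2 of 4 with loess, 7 of 8 with the authors' values, 4 of 8 with centring by probe length and 1 of 3 with centring by input class. Leaving out low-gain heifer 5 made the 8 regions 13, and leaving out heifer 6, 7 or 8 made them 3. The region differences ran from -0.88 to 1.16 with a median of 0.11, against -0.03 over all regions. The groups did not overlap at 1 window region, where 6.25% of all regions were so separated.

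The largest moderated t belonged to the 7-probe region at 34117279 to 34120200. High-gain heifers 1 to 4 were at 0.27, 0.42, -0.16 and 0.84, and low-gain heifers 5 to 8 at 0.16, -0.91, -0.84 and -1.11. Heifer 5 lay with the high-gain animals and the other low-gain heifers lay below all of them. The difference was 1.02 (standard error 0.31; limma, unadjusted p = 0.00671, adjusted p = 0.226). It was 0.65 in the enriched channel and -0.36 in the input channel.

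At 33921388 to 33924302, with 8 probes, high-gain heifers were at 0.43, 0.50, -0.12 and 0.16 and low-gain heifers at -0.05, -0.18, -0.94 and -1.14. The groups met at heifers 3 and 5, and the difference was 0.82 (limma, adjusted p = 0.258). The lowest region, at 34007696, differed by 1.16 (standard error 0.42; limma, adjusted p = 0.258). In locus 2, the 24-probe region at 37752402 to 37761342 was at -0.29, 0.12, -0.01 and 0.68 in the high-gain group and 0.01, -0.75, -0.78 and -0.54 in the low-gain group. There too heifer 5 lay inside the high-gain range, and the difference of 0.64 did not pass (limma, adjusted p = 0.299). Nor did that of 0.74 at 33963435, one of the lowest regions above (limma, adjusted p = 0.299), or that of 0.54 at 34097684 to 34104472 (limma, adjusted p = 0.337). At the latter high-gain heifers were at -0.06, 0.26, 0.08 and -0.11 and low-gain heifers at -0.07, -0.63, -0.25 and -1.06, so the groups met at heifers 4 and 5.

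On the side lower in high-gain heifers, the 3-probe region at 33974601 to 33975665 was the 1 whose groups did not overlap. High-gain heifers were at -0.36, 0.14, 0.16 and -0.01, and low-gain heifers at 0.22, 0.60, 0.59 and 0.81. The difference was -0.57 (standard error 0.23; limma, adjusted p = 0.295). Its input was 2.71 log2 units below the median probe. Enriched readings well above background made up 8.33% in high-gain heifers and 0% in low-gain heifers, so the value rests on signals near background. With each array centred within 5 classes of probes by input level, its difference was 0.14, in the other direction.

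Of the 14 regions in locus 2, 5 were lower in high-gain heifers, and 3 of these were among the 6 with the most negative t of the window. None passed. The region at 37778630 to 37780752 was at -0.26, -0.29, 0.23 and -0.52 in the high-gain group and 0.03, 0.29, 0.98 and 0.94 in the low-gain group, a difference of -0.77 (limma, adjusted p = 0.258). That at 37812831 to 37814414 was at -0.68, 0.38, -0.58 and -0.56 against 0.04, 0.57, 0.30 and 0.32, with high-gain heifer 2 inside the low-gain range (-0.67; limma, adjusted p = 0.295). At 37794245 to 37796574 high-gain heifer 1 (0.75) and low-gain heifer 5 (-0.53) lay with the opposite group (-0.88; limma, adjusted p = 0.353). At that last region the input differed by 0.79 and the enriched signal by -0.10. Input at 37778630 and 37794245 lay 2.11 and 2.34 log2 units below the median probe. Of their enriched readings 37.5% and 29.2% in the high-gain and 33.3% and 20.8% in the low-gain group were well above background. Their differences were -0.19 and -0.33 with normexp and -0.27 and -0.30 with the authors' values. The other 2 regions with the most negative t, at 34146344 and 34088022, differed by -0.29 and -0.38 and turned direction under several alternatives.

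Of the 681 probes, 0 passed (limma, smallest adjusted p = 0.167), as did 0% of all 10249. At unadjusted p under 0.05, 59 were higher in high-gain heifers (8.66% of the window against 7.21% of the array) and 37 lower (5.43% against 5.23%), together 14.1% against 12.4%. Of the 678 window probes with a value on all arrays, 50 had groups without overlap, 7.37% against 6.87% over the array. These shares were near the background. No stretch of 3 or more consecutive probes, with starts at most 1000 bp apart, all in the same direction and all under 0.05 before adjustment, was found in the window, and 13 were found on the whole array.

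The probe with the smallest p spanned 37758012 to 37758057 in locus 2, inside the 24-probe region above. It was at 1.10, 0.27, 1.17 and 1.00 in the high-gain group and at -1.11, -3.54, -3.25 and -3.73 in the low-gain group. The groups stood apart, with heifer 5 between them. The difference was 3.80 (standard error 0.62; limma, unadjusted p = 0.000123, adjusted p = 0.167), of which 3.05 was in the enriched and -0.74 in the input channel. Its input was 4.80 log2 units above the median probe, and its enriched signal was well above background on all 8 arrays.

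The other 4 of the 5 leading probes higher in high-gain heifers were all in locus 1. The probe at 34120140 to 34120200 was at 0.09, 1.62, 0.90 and 1.04 in the high-gain group and -1.13, -1.63, -1.02 and -1.18 in the low-gain group. At 34128725 to 34128770 they were at 0.54, 0.71, 1.55 and 1.36 against -0.33, -1.42, -0.90 and -1.09. At these probes all 4 low-gain heifers, heifer 5 among them, lay below 0 and all high-gain heifers above. Those at 33989162 to 33989222 and 34085946 to 34086006 differed by 2.51 and 2.62, with input 4.95 and 6.24 above the median probe.

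The 5 leading probes lower in high-gain heifers were of another kind. That at 33953099 to 33953159 was at -2.16, -0.70, -1.65 and -1.84 in the high-gain group and 0.62, 0.89, -0.05 and 0.47 in the low-gain group, with an enriched signal well above background on 7 arrays. At the other 4, starting at 34023422, 34108019, 34167147 and 37771313, input lay 2.93, 2.38, 2.81 and 2.39 below the median probe. The enriched signal there was well above background on 0, 1, 0 and 1 of the 8 arrays. No fold is given for these 4, since their ratios were formed from signals near background.

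All window probes at unadjusted p under 0.05, the 10 leading ones included, showed the same contrast as a group. The 59 higher in high-gain heifers had a median input level 2.11 above the median probe, and at all 59 the enriched signal stood well above background on at least 1 array. The 37 lower ones had a median input level of -2.62, and at 16 of them it did so on no array. Their median difference was 1.03 in the input and -0.71 in the enriched channel, whereas the 59 higher ones had -0.41 in the input and 1.70 in the enriched channel. Over the whole array, the 739 higher probes had a median input level of 2.21 and the 536 lower ones of -2.26. The window was thus like the array in this respect.

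Ratios in low-gain heifers 6, 7 and 8 were lower at probes with brighter input, in the window and elsewhere. When all probes were ranked by mean input and divided into 5 equal classes, window probes of the dimmest class were at 0.51, 0.64 and 1.20 in heifers 6, 7 and 8, and those of the brightest class at -1.13, -0.91 and -1.63. Heifer 5 was at 0.24 and -0.03 in those classes. High-gain heifers were at -0.12, 0.22, 0.24 and -0.41 in the dimmest and at 0.07, 0.34, -0.28 and -0.32 in the brightest class. Outside the window heifers 6, 7 and 8 were at 0.51, 0.77 and 1.05 in the dimmest and -0.77, -0.64 and -1.28 in the brightest class. Input is the denominator of the ratio, so these quantities are not independent, and the part of this dependence in the differences above was not tested beyond centring within classes.

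**Figure D5:**
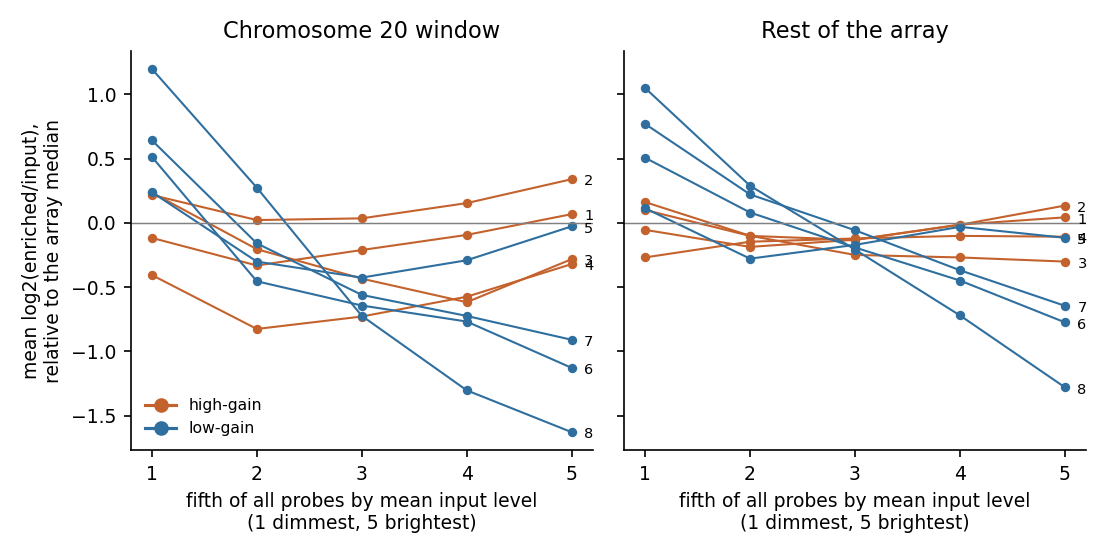
Mean log2 ratio (vertical axis, relative to the array median) by class of input level, all probes being ranked by mean input over the 8 arrays and split into 5 equal classes, for the chromosome 20 window (left) and the rest of the array (right). Each line is a heifer, numbered at its right end. Low-gain heifers 6, 7 and 8 slope downward in both panels, and heifer 5 and the high-gain heifers do not do so to the same extent.

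With each array centred within these input classes, the regions at 34117279, 33921388 and 34007696 differed by 0.35, 0.34 and 0.55 in place of 1.02, 0.82 and 1.16. The low mean of the region at 34007696 was then -1.09 and still passed (limma, adjusted p = 0.0054), and the means of loci 1 and 2 passed as well. In each of the 3 middle input classes the window lay below the rest of the array on 7 of 8 arrays, in the dimmest class on 3 and in the brightest on 4.

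Fewer window probes were called well above background in the enriched channel in low-gain heifers. The share of the 681 probes well above background in the enriched channel was 68.3%, 71.4%, 63.4% and 69.3% in high-gain heifers 1 to 4, and 61.5%, 55.4%, 61.1% and 38.6% in low-gain heifers 5 to 8. The groups did not overlap, and low-gain heifer 8 was far the lowest. The means were 68.1% ± 3.36 and 54.1% ± 10.7 (SD, n = 4 each; exact permutation p = 0.0286, two-sided, the smallest this design allows, or 0.143 when adjusted by Benjamini-Hochberg for the 5 window measures tested). The difference of 14.0 percentage points was 8.77 without heifer 8 (exact permutation p = 0.0571), and 12.9 to 15.5 when any 1 of the high-gain heifers was left out (exact permutation p = 0.0857). It was 11.4 points within row 1 of the slide and 16.5 within row 2. The lowest enriched signal called well above background was 171, 136, 137 and 110 in heifers 1 to 4. In heifers 5 to 8 it was 177, 217, 228 and 413. This floor was thus higher on every low-gain array than on any high-gain array, and highest for heifer 8. The part of the floor in the difference of shares was not tested.

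Over the rest of the array the same shares were 74.2% ± 2.19 and 62.9% ± 8.44 (SD, n = 4 each), also without overlap, so the lower share in low-gain heifers was not confined to the window. On all 8 arrays the window had a lower share than the rest. Among probes spanning 60 bases the window and the rest were closer, at 66.6% and 67.5% in the high-gain group and 51.9% and 53.9% in the low-gain group. In the window the enriched signal of 222 probes stood well above background on all 8 arrays and that of 86 on none. These were 32.6% and 12.6% of the window, against 44.7% and 11.1% of the rest. All high-gain and no low-gain arrays had such a signal at 5 of 681 window probes and at 32 of 9568 probes elsewhere, and the reverse was seen at 0 probes in either set.

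The input channel gave no such separation. It was well above background at 82.5% ± 8.18 (SD) of window probes in the high-gain and 78.5% ± 3.71 (SD) in the low-gain group (n = 4 per group; exact permutation p = 0.486, two-sided). The mean input level of the window was -0.11 ± 0.18 and -0.10 ± 0.09 (SD, n = 4 each) log2 units relative to the median probe (exact permutation p = 0.971, two-sided). The spread of window ratios, as an interquartile range, was 0.99 to 2.42 in the high-gain and 1.67 to 2.67 in the low-gain group (exact permutation p = 0.286, two-sided).

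Along locus 1 the mean ratio was below 0 in every stretch examined, although 8 of its 46 regions had a mean above 0. In consecutive stretches of 50 kb the mean over all heifers was -0.34, -0.24, -0.25, -0.21, -0.15, -0.36 and -0.32, the last stretch being cut short by the end of the locus. In locus 2 it was -0.20 in the first 50 kb and -0.24 beyond. Each of these 9 stretches was below 0 in 6 to 8 of the 8 heifers, so no single stretch carried the low mean of either locus. Probes spanning 60 bases made up 51.0% to 63.3% of the stretches of locus 1, and 45.1% and 51.4% of those of locus 2. Over the rest of the array they made up 34.1%, and the stretches were not centred by probe length.

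Neighbouring probes varied largely on their own. For the 87 neighbouring pairs with starts at most 200 bp apart, the mean ratios of the 2 probes correlated at r = 0.198 and their group differences at r = 0.300. For the 273 pairs at 201 to 400 bp these were 0.074 and 0.126, and for the 244 pairs at 401 to 1000 bp 0.083 and -0.022. For the 75 pairs farther apart, up to 20000 bp, both were 0.158, so the values did not decline steadily with distance. These correlations are across probe pairs that share arrays and input brightness, which itself correlated at 0.268 in the closest pairs.

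Leaving out low-gain heifer 5 brought calls into the window. Without that animal 24 probes and 2 regions of the window passed (limma, adjusted p under 0.05), 22 of the 24 probes being higher in high-gain heifers. These were 3.52% of its probes and 3.33% of its regions, against 3.01% and 2.6% over the whole array, so the shares were near the background. The 2 regions were those at 34007696, with a difference of 1.61 (limma, adjusted p = 0.0277), and 34117279, with 1.30 (limma, adjusted p = 0.0317). At 9 of the 24 probes heifer 5 lay inside the high-gain range. At those starting at 33925318 and 34032854 it lay above every high-gain heifer, at 2.16 and 1.64. Of the 24 probes, 22 had an input level above the median probe, with a median of 2.69. When any other heifer was left out, 0 probes and 0 regions of the window passed (limma, with 65 to 123 probes and 3 to 11 regions under 0.05 before adjustment).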

How the data were processed

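Per the file headers, the deposited intensity values came from version 10.7.1.1 of the Agilent Feature Extraction software under its protocol ChIP_107_Sep09, with positions on Btau_3.1, and the processed signals used here were background-subtracted, detrended and dye-normalised by that software. The authors' deposited table of log2 ratios matched (within 0.0001) ratios of median signals after subtracting background, wherever both were positive. Its array medians ran from -1.82 to 0, so no centring had been applied, and it served as an alternative only. The log2 ratio of enriched (red) to input (green) signal was taken at 10249 non-control probes without 28 flagged outlier spots (3 in the window), and the median of each array was subtracted. Enriched DNA was red on every array, so no dye swap balances a dye effect. No enriched or input window spot was saturated.

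Two-sided limma fits (version 3.58.1, R 4.3.3, with lmFit then eBayes) compared the groups, with p-values adjusted by Benjamini-Hochberg over the whole array and a threshold of 0.05, per probe, per region and per locus of at least 10 probes. The profile was the mean of both group means tested against 0. Exact permutation tests served for measures with 1 value per array. The steps were also run on simulated data with independent noise per probe and array. Such data lack the correlation between heifers 6, 7 and 8, so that run cannot show how often the tests call falsely here. The window and tests were chosen with earlier results of these data known. Named were both loci, the 6 highest and 6 lowest regions, the 6 regions per direction with the largest moderated t, and 5 probes per direction with the smallest p. Normexp (offset 50) was run on median signals, as the files hold no mean signals. With 1 slide and 1 scan date for all 8 arrays, the slide row, as read from the array barcode, was the array position tested. Row 1 held heifers 1, 2, 5 and 6, and row 2 held heifers 3, 4, 7 and 8. The slide column was not tested. Column 1 held only high-gain heifers (1 and 3) and column 3 only low-gain heifers (5 and 8), so column and group are partly confounded. The number of arrays limits the precision. Probe sequences and a genome of this build were not used here.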

Additional observations from a re-analysis of the deposited data

Results flagged for a closer look

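Among 88 groups of 4 heifers examined for a single heifer far from the others of its group, 5 stood out. Many of these groups share probes or were named for extreme values, so this count cannot be set against a chance rate. The region at 37812831 was at 0.38 in high-gain heifer 2, against -0.68 to -0.56 in the other high-gain heifers. The probe at 34009119 was at -0.43 in low-gain heifer 5, against -3.27 to -2.80 in heifers 6, 7 and 8. The probe at 34010096 was at -0.37 in high-gain heifer 2, against -1.88 to -1.65 in the others. The probe at 34167147 was at -1.17 in high-gain heifer 4, against -0.04 to 0.05, and at 0.72 in low-gain heifer 7, against 1.94 to 1.96, but its enriched signal was not well above background on any array, so both of these are ratios of signals near background and are given as values only.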

How the results depend on the processing

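No paired analysis was possible because the groups share no replicate number. None of the alternatives called a locus of the window between the groups. Window probes and regions passed only with array weights (30 and 9, or 4.41% and 15%, against 3.22% and 20% of the whole array) and on leaving out low-gain heifer 5 (counts of 0 to 24 and 0 to 2 across single-heifer omissions); the weights of the probe fit were lowest for low-gain heifer 5 (0.35) and high-gain heifer 4 (0.41). The locus differences were 0.01 to 0.26 and 0.03 to 0.19, and the window difference 0.01 to 0.25, when 1 heifer was left out. They were 0.50, 0.44 and 0.49 over probes with input above background on all arrays (the input filter). Over probes measurable in both channels on at least 6 arrays (the filter on both channels) they were 0.49, 0.56 and 0.50. None passed. Arrays were not centred again after either filter. The filter on both channels also kept probes measurable on every high-gain array but not on every low-gain array. Within slide row 2 the differences of the 2 loci and the window were -0.059, -0.0096 and -0.050. With centring by probe length that of locus 1 was -0.018 and that of the window -0.0069. The share well above background differed by 8.77 to 16.4 points over the omissions (exact permutation p = 0.0286 to 0.0857) and by 11.4 and 16.5 within the slide rows, where no p under 0.05 is possible. The input difference was -0.095 to 0.038 over the omissions and 0.14 within slide row 2.

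The 7 regions off the array median (11.7%, against 12.9% of all regions) became 26 with normexp (43.3% against 29.5%), 13 with loess (21.7% against 26.4%), 4 with scaling (6.67% against 8.12%), 17 under the input filter (29.3% against 22%), 14 with the slide row as a block, 3 and 13 within slide rows 1 and 2, 20 with array weights (33.3% against 33.2%), 18 with starts at most 500 bp apart (18% against 14%), 4 with centring by probe length (6.67% against 9.79%), 2 with centring by input class (3.33% against 10.6%) and 1 to 18 over the omissions. The loci off the median were 0 to 2 over the omissions (means -0.32 to -0.19 at locus 1 and -0.26 to -0.19 at locus 2). Under the input filter they were 2, with means of -0.47 and -0.39 (limma, adjusted p = 0.0028 and 0.0143). Those means were still set against the median of all probes, and 40 loci of the whole array were then called below, against 33 without the filter. The window loci off the median were 1 with scaling (locus 2 at -0.18) and under the filter on both channels (locus 2 at -0.27). They were 0 within slide row 1 (-0.14 and -0.14) and with centring by probe length (-0.064 and -0.077).

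The direction turned for the difference at 34088022 with normexp (0.016) and under either filter (0.49 each). It turned at 34146344 with loess (0.10), either filter (0.89 each), within slide row 1 (0.035) and with centring by input class (0.20), at 37812831 under the filter on both channels (0.14), and at 33974601 with centring by input class (0.14). Profile means turned at 34136193 with normexp (-0.11), at 37782965 within slide row 1 (-0.034) and at 33974601 with centring by input class (-0.15). Unless shown by the alternative's own construction, the cause was not tested. Centring by probe length and by input class was chosen after seeing the data. At 180 of 681 probes the enriched signal was near background on all low-gain arrays, which limits what the ratios can show.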
